A study of Mus musculus with 20 samples.

Results

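Among the 55573 genes counted in embryoid body (EB) cultures of mouse induced pluripotent stem cells (iPSCs), 78 had almost no reads in the lines without Nox4 while both wild type lines expressed them. These genes were chosen by their mean expected count, the number of reads that RSEM assigned to a gene: 3 or less over the 10 libraries of the Nox4-/- lines, and 20 or more over the 5 libraries of each wild type line. They make up 0.599% of the 13027 genes that reached 20 counts in both wild type lines. The mirrored rule, with wild type and knockout exchanged, found 13 of 13286 genes, or 0.0978%. The zinc finger protein gene Repin1 and the matrix protein gene Itih5 mark the set. Because the rule used the difference between the genotypes, that difference is described here for the 78 genes and not tested. The label of genes absent from both knockout lines holds only in part: 57 of the 78 had a mean of 3 or less in Nox4-/- #5-8, 74 in Nox4-/- #5-23 and 53 in both.

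The iPSCs were made from embryonic fibroblasts of wild type and Nox4-/- mice by viral transfer of Oct4, Sox2, Klf4 and c-Myc, and were kept with LIF on feeder fibroblasts treated with mitomycin. EBs were then formed in hanging drops and plated on gelatin. RNA-seq libraries came from 2 wild type lines, WT#1-4 and WT#20D-17, and 2 knockout lines, numbered Nox4-/- #5-8 and #5-23, with 1 library of each line on days 0, 3, 5, 7 and 14. The study's text names WT#1-4 and both Nox4-/- lines, while WT#20D-17 is given as wild type in the sample labels alone. Total counts per library were between 21065890 and 26237571 in WT#1-4, 20968431 and 24649416 in WT#20D-17, 20294968 and 25602544 in Nox4-/- #5-8, and 21759520 and 27708023 in Nox4-/- #5-23. Each line was a single line, so a difference between genotypes cannot be told apart from a difference between 2 lines and 2 others.

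Nox4 is an NADPH oxidase that needs the membrane subunit p22phox, the product of Cyba, and releases mainly hydrogen peroxide. Hydrogen peroxide acts as a signal through the oxidation of protein cysteines. In an EB, pluripotent cells leave their self-renewing state and form derivatives of the germ layers, which switches many genes on and others off. Such genes code for matrix proteins, adhesion proteins, transporters, signals and transcription factors, and the 78 genes include members of each of these classes.

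Nox4 itself fitted the labels. In WT#20D-17 it had 64, 165, 188, 203 and 56 counts on days 0, 3, 5, 7 and 14. In WT#1-4 it had 7, 22, 21, 12 and 3 counts, a mean under 20, so Nox4 is not one of the 78 genes. Nox4-/- #5-8 had 0, 2, 0, 1 and 0 counts and Nox4-/- #5-23 had 0 in all libraries. The knockout libraries were the lowest, but day 14 of WT#1-4, with 3 counts, was hardly above the highest of them. The other oxidase genes given here were not among the 78 either. Cyba had 55 to 167 counts in WT#1-4, 512 to 1800 in WT#20D-17 and 149 to 997 in the Nox4-/- lines. Noxo1, the organizer of Nox1, had 16 to 68 counts over the 20 libraries. Nox1, Cybb, Ncf1 and Duox2 did not pass 16 counts, and Nox3, Duox1, Noxa1 and Ncf4 did not pass 3 counts in any library.

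WT#20D-17 stood apart from the other 3 lines. Levels are given here as CPM, the count as a part of its library's total, with TMM factors for differences in composition. Pou5f1, which codes for Oct4, one of the factors given by virus, carried most of the sum of 10 pluripotency genes outside WT#20D-17, for example 5760 of 5946 CPM on day 0 of WT#1-4 and 3081 of 3373 CPM on day 0 of Nox4-/- #5-8. The 10 genes together had 1346 to 5946 CPM in WT#1-4, 2091 to 3373 CPM in Nox4-/- #5-8 and 3777 to 4770 CPM in Nox4-/- #5-23. In WT#20D-17 the sum was 3860 CPM on day 0 and 99.8 CPM on day 14. The defining markers split the lines in another way. Nanog had 8.40 to 383 CPM in WT#20D-17 and at most 1.03 CPM in the other 15 libraries. Zfp42 was at 0 in those 15 libraries, and Esrrb and Dppa3 had at most 0.210 and 0.046 CPM there, so in WT#1-4 and both Nox4-/- lines, although labelled as iPSCs, these markers of naive pluripotency were at or near 0. Other genes of the list did not follow this split. Fgf4 had 58.4 to 192 CPM in the other 15 libraries and 2.26 to 93.4 CPM in WT#20D-17, Sox2 reached 202 and 195 CPM, and Tdgf1 reached 41.5 and 669 CPM. Visceral endoderm genes, among which Apob reached the highest level, summed to 660 to 4383 CPM in WT#20D-17 and at most 7.98 CPM elsewhere. Genes of muscle and mesoderm, led by Acta2, reached 864 CPM in WT#20D-17, 56.0 CPM in WT#1-4 and 22.9 CPM in the Nox4-/- lines. Acta2 alone reached 767 CPM in WT#20D-17, while Pax3, Tbx6 and Foxc2 had their highest levels, 5.18, 10.3 and 2.58 CPM, outside that line. Neural genes went the other way, with 320 to 542 CPM in WT#1-4, led by Map2, 109 to 184 CPM in the Nox4-/- lines and 38.2 to 105 CPM in WT#20D-17. Nes was an exception, with 28.7 to 86.3 CPM in WT#20D-17 and 11.4 to 43.1 CPM elsewhere, and Neurog2 reached 0.420 CPM in WT#20D-17 and was at 0 elsewhere. Genes of the Y chromosome were expressed in all 20 libraries, at a sum of 143 to 292 CPM, and Xist did not pass 7.95 CPM. Kdm5d, a Y-linked demethylase, had 0.610 to 1.31 CPM in WT#20D-17 and 39.4 to 79.1 CPM in the other 15 libraries. In cultures of mixed cells, fewer cells of a type and less RNA per cell cannot be told apart.

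**Figure D1:**
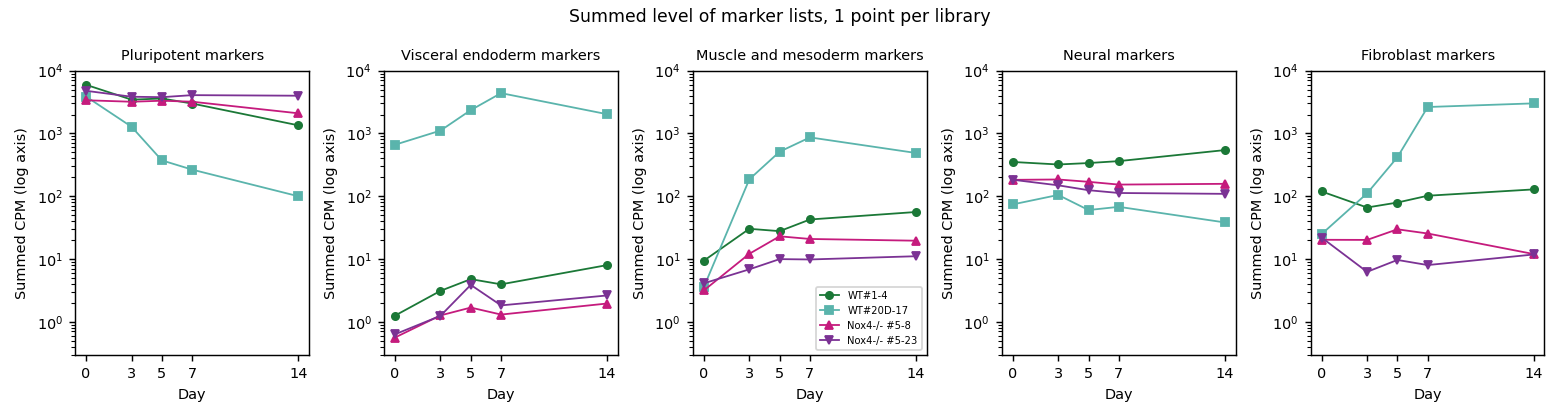
Summed CPM, on a log axis, of the pluripotency, visceral endoderm, muscle and mesoderm, fibroblast and neural gene lists against day for the 4 lines, 1 point for each library. WT#20D-17 separates from the other 3 lines by its visceral endoderm genes, at 660 to 4383 CPM against at most 7.98 CPM.

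Because of this split, both limits on the wild type lines matter. With the limit on WT#1-4 alone 145 genes met the rule, and with the limit on WT#20D-17 alone 1002 genes did. The 78 genes are those at or under the knockout limit that the 2 wild type lines share at a mean of 20 counts or more. Their median of the mean counts was 43.5 in WT#1-4, 119 in WT#20D-17 and 1.35 in the Nox4-/- libraries, and 53 of the 78 had the higher mean in WT#20D-17. The rule used both means and no matching share of all genes is given, so this count is a description. No count of a knockout library reached any count of a wild type library in 50 genes (64.1%), and the genotypes overlapped in 28. The rule chose the genes on this difference, and among all genes at 20 counts or more in both wild type lines the share without overlap was 1.45%. In 21 genes at least 1 wild type library had 3 counts or fewer. The highest knockout count was 24, for Gucy1a1 on day 0 of Nox4-/- #5-23. Only Map7d3 and Gm45837 had 0 counts in all 10 knockout libraries.

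**Figure D2:**
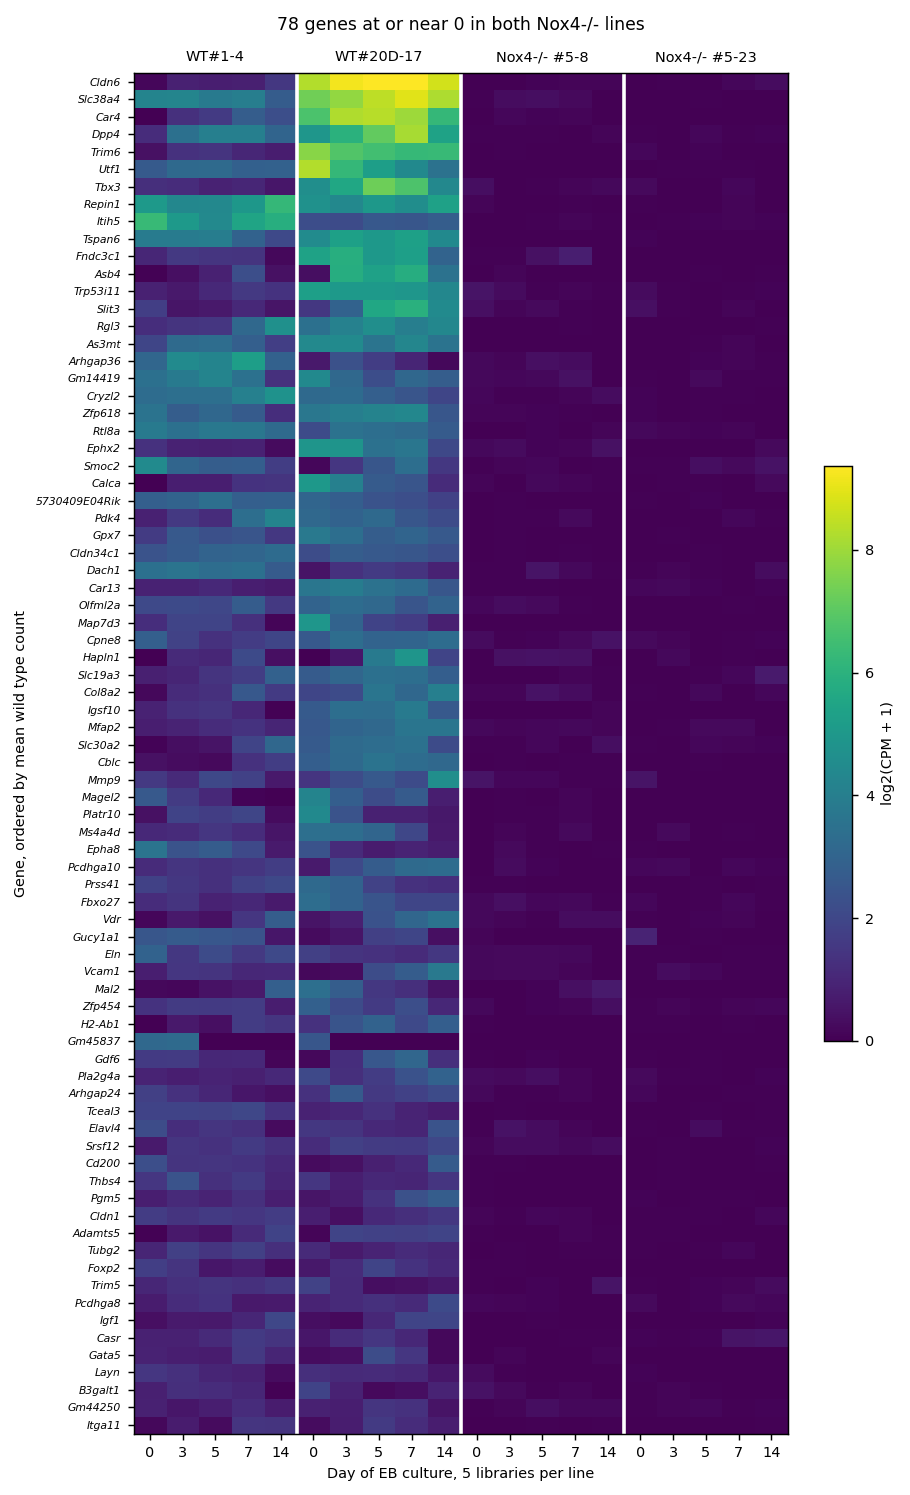
Log2(CPM + 1) of the 78 genes in the 20 libraries, with genes in rows by mean wild type count and libraries in columns by line and day. The 10 columns of the Nox4-/- lines are near 0, and within the wild type columns many genes are brighter in WT#20D-17.

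The limits cut through a range of values and not a gap. Just inside the knockout limit were Mmp9 and Trp53i11 with a mean of 2.9 counts and Cpne8 and Smoc2 with 3.0 counts. Gprasp2, at 3.005 counts, and Glrb, at 3.1 counts, were just outside. At the wild type limit, Gm44250 with 20.0 counts, Cldn6 with 20.2 counts and Itga11 with 21.0 counts in the lower line were inside, while Ctnna2 and Wnt7b, both with 19.4 counts, and Gcgr, with 19.8 counts, were outside.

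The 78 genes together had 140, 132, 165, 132 and 97.2 counts in Nox4-/- #5-8 on days 0 to 14. In Nox4-/- #5-23 they had 121, 48.0, 81.0, 78.5 and 117 counts. These sums are not scaled for depth, which differed between the libraries, so the days are not ranked. On day 0 Gucy1a1, a subunit of guanylate cyclase, had 24 counts in Nox4-/- #5-23, Mmp9, a matrix protease, had 10 and 11 counts in Nox4-/- #5-8 and #5-23, and Slit3, a guidance cue, had 8 counts in both. The iPSCs were kept on feeder fibroblasts, and whether the day 0 libraries held any is not given in the sources used here. The 10 fibroblast genes summed to 12.0 to 29.7 CPM in Nox4-/- #5-8, 6.23 to 21.9 CPM in Nox4-/- #5-23, 66.0 to 128 CPM in WT#1-4 and 24.9 to 3011 CPM in WT#20D-17, where Col3a1 reached 1002 CPM. The highest fibroblast sum was on day 0 in Nox4-/- #5-23 and on day 5 in Nox4-/- #5-8, where day 0 had 20.2 CPM. Outside WT#20D-17, Col1a1 reached 36.3 CPM, Thy1 35.4 CPM and Prrx1 29.9 CPM, while Lum did not pass 0.397 CPM. The part of feeder cells in the 78 genes' counts was not tested.

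Repin1 codes for a zinc finger protein known from replication initiation and from adipocytes. The gene lies on the plus strand at chr6:48593883-48599082 of GRCm38. Its counts on days 0, 3, 5, 7 and 14 were 834, 480, 527, 803 and 1522 in WT#1-4 and 627, 459, 705, 528 and 771 in WT#20D-17. In Nox4-/- #5-8 they were 2.13, 0, 0, 1 and 0, and in Nox4-/- #5-23 they were 1, 0, 0, 2 and 0. All 10 wild type libraries were thus at 459 counts or more and all 10 knockout libraries at 3 or fewer, with no day at which the genotypes came close. The mean over the 5 days was 35.3 ± 23.2 CPM (SD, n = 5) in WT#1-4, 28.0 ± 8.01 CPM in WT#20D-17, 0.026 ± 0.037 CPM in Nox4-/- #5-8 and 0.025 ± 0.039 CPM in Nox4-/- #5-23. The log2 ratio of WT#20D-17 to WT#1-4 was -0.23 with an SE of 0.24. By edgeR's quasi-likelihood test its false discovery rate (FDR, the p-value adjusted over all genes tested) was 0.499. This FDR is a description and not a test, because the rule used the mean of each wild type line. The overlapping genes, Gm44965 and Gm45021, did not pass 1.93 counts.

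Itih5 codes for a heavy chain of the inter-alpha-trypsin inhibitor family, whose members bind hyaluronan in the matrix. The gene lies on the plus strand at chr2:10153571-10256529 of GRCm38. WT#1-4 had 2043, 826, 543, 1157 and 1148 counts, and WT#20D-17 had 90, 79, 114, 107 and 109 counts. The Nox4-/- libraries had 0, 0, 1, 2 and 1 counts in #5-8 and 0, 1, 2, 2 and 2 counts in #5-23. The 3 levels were separate on every day, since the lowest count of WT#1-4 was above the highest of WT#20D-17, and the lowest of WT#20D-17 above the highest of the knockouts. The mean was 46.3 ± 22.1 CPM (SD, n = 5) in WT#1-4, 4.51 ± 0.953 CPM in WT#20D-17, 0.036 ± 0.040 CPM in Nox4-/- #5-8 and 0.057 ± 0.035 CPM in Nox4-/- #5-23. WT#20D-17 was lower than WT#1-4 by a log2 ratio of -3.29 (SE 0.34, edgeR quasi-likelihood FDR 0.000492), in 5 of 5 days. Because the rule used the mean of each wild type line, this FDR is a description and not a test. The other heavy chain genes were hardly expressed in any line. Itih1 was at 0 throughout, Itih2, Itih3 and Itih4 had at most 13, 8 and 11 counts, and Ambp, which codes for the light chain bikunin, had 1 to 40 counts in WT#20D-17 and 0 in the other lines.

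**Figure D3:**
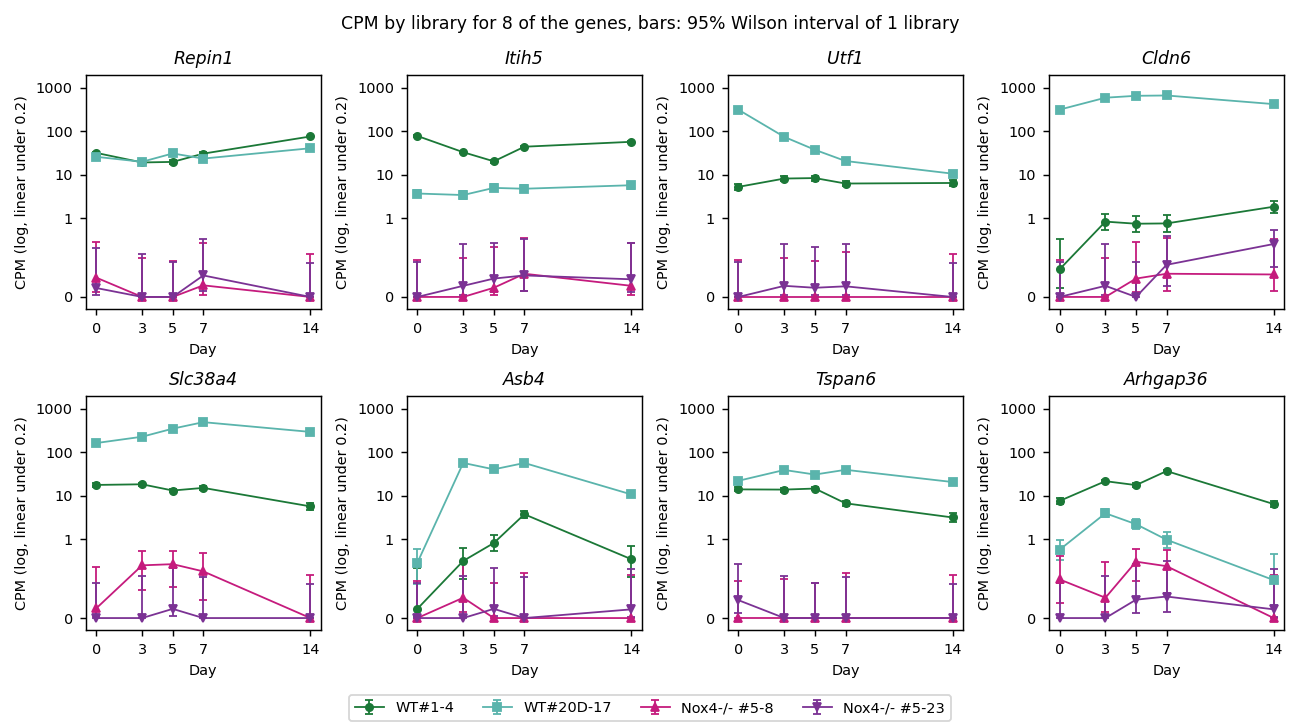
CPM of 8 of the 78 genes against day in the 4 lines, on an axis that is logarithmic above 0.2 CPM, with 1 point for each library and its 95% Wilson interval as a bar. Repin1 spans 19.1 to 75.5 CPM in WT#1-4 and 19.8 to 40.5 CPM in WT#20D-17. Itih5 is high in WT#1-4, Cldn6 and Slc38a4 are high in WT#20D-17, and the Nox4-/- lines stay near 0.

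Promoters were read for the 58 of the 78 genes that matched RefSeq's promoter table of GRCm38.p6, as the 300 bases from 250 before to 50 after the start. Most promoters of widely expressed genes are CpG islands, stretches in which CG pairs are frequent, while tissue-restricted genes often lack them. The median number of CG pairs was 13 in the 58 promoters, 21 in 9721 promoters of other genes with 20 or more counts in both wild type lines, and 7 in all 27025 promoters. An observed over expected CG ratio of 0.6 or more was found in 25 of the 58 (43.1%), in 75.7% of the other expressed genes and in 36.5% of all promoters. The median of the 58 promoters thus lay between those of the other sets, and single promoters ran from 1 pair, in Platr10 and Trim5, to 59 pairs, in Zfp618. The 4 promoters printed here show sparse to dense examples from that range, with each CG pair in capitals. They are the promoters of Itih5 (plus strand, chr2:10153293-10153592) with 9 pairs, Arhgap36 (plus strand, chrX:49463695-49463994) with 3 pairs, Utf1 (plus strand, chr7:139943606-139943905) with 17 pairs and Zfp618 (plus strand, chr4:62965317-62965616) with 59 pairs, all in GRCm38.p6 and written 5′ to 3′.
Itih5: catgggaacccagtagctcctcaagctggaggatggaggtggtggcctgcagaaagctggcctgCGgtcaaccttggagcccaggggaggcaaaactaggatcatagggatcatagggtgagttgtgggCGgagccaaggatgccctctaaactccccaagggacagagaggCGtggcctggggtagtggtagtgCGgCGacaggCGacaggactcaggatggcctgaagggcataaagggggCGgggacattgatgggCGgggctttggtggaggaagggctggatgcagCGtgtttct
Arhgap36: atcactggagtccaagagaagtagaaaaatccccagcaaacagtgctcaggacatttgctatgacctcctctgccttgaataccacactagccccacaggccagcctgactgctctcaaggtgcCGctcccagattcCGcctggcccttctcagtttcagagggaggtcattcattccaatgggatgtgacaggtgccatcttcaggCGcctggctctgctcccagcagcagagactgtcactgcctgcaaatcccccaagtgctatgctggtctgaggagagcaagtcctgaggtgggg
Utf1: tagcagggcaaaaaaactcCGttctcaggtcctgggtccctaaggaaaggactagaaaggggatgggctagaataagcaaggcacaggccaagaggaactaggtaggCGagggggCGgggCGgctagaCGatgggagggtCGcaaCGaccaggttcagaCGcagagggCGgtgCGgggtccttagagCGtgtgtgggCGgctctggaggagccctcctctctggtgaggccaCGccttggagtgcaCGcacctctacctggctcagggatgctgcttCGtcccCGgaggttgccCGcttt
Zfp618: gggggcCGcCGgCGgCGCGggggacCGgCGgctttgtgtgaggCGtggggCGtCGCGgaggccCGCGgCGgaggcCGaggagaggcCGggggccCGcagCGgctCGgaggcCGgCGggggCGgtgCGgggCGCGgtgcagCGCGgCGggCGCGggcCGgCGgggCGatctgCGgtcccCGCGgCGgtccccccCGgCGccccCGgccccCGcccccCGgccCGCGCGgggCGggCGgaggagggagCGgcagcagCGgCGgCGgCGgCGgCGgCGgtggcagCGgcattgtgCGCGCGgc

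Searched on both strands, the letters GGGCGG, which hold a CG pair and are the core of the GC box, were in 33 of the 58 promoters (56.9%), in 67.3% of the other expressed genes and in 35.9% of all promoters. TATAAA was in 4 of the 58 (6.9%), in 6.4% of the other expressed genes and in 14.2% of all. CCAAT was in 19 of the 58 (32.8%), in 39.4% of the other expressed genes and in 37.9% of all. These are matches of letters and not binding sites.

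The 78 genes were sorted by what their products do, after their values had been seen. The matrix group held 11 genes, with median mean counts of 49.6 in WT#1-4, 156 in WT#20D-17 and 2.0 in the knockouts. Next to Itih5 it held Eln (elastin), Mfap2 (a microfibril protein), Col8a2 (a collagen VIII chain), Thbs4 (a thrombospondin), Hapln1 (a link protein that joins hyaluronan to proteoglycans) and the proteases Mmp9 and Adamts5. Eln had 177, 47, 90, 52 and 64 counts in WT#1-4 and 59, 39, 35, 28 and 35 counts in WT#20D-17. It had 0 to 5 counts in the knockout libraries, so the groups did not meet. Hapln1 had 0, 29, 27, 86 and 6 counts in WT#1-4 and 0, 11, 310, 640 and 54 counts in WT#20D-17. It had up to 10 counts in Nox4-/- #5-8 and up to 3 in Nox4-/- #5-23, and on day 0 all 4 lines were at 0, so its difference lay in the later days. Smoc2, a calcium-binding matrix protein, had 568, 185, 154, 157 and 46 counts in WT#1-4 and 3, 42, 107, 214 and 35 counts in WT#20D-17. It reached 10 counts on day 14 of Nox4-/- #5-23, above day 0 of WT#20D-17.

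Cell surface and adhesion proteins were coded by 13 of the 78 genes, with medians of 31.4, 92.4 and 1.2 counts in WT#1-4, WT#20D-17 and the knockouts. The claudin genes Cldn6, Cldn1 and Cldn34c1 belonged to this group.
Cldn6, a claudin of embryonic epithelia, had 3, 21, 20, 20 and 37 counts in WT#1-4 and 7611, 13629, 14889, 14874 and 7966 counts in WT#20D-17. Nox4-/- #5-8 had 0, 0, 2, 2 and 2 counts and Nox4-/- #5-23 had 0, 1, 0, 3 and 7, which overlaps day 0 of WT#1-4. Cldn6 thus met the rule by a narrow margin in one wild type line and was among the strongly expressed genes of the other. Cldn1 had 41 to 57 counts in WT#1-4, 7 to 36 counts in WT#20D-17 and 0 to 3 counts in the knockouts. Tspan6, a tetraspanin, had 369, 349, 393, 177 and 64 counts in WT#1-4, 539, 909, 705, 890 and 394 counts in WT#20D-17, and no count in 9 of the 10 knockout libraries, with 2 counts on day 0 of Nox4-/- #5-23. H2-Ab1, a chain of MHC class II, had 0 to 58 counts in WT#1-4, 37 to 155 counts in WT#20D-17 and at most 1 count in the knockouts. The group also held the integrin chain gene Itga11, the adhesion receptor gene Vcam1 and the protocadherin genes Pcdhga8 and Pcdhga10. The protocadherins share their last exons, so that their counts depend on how reads were divided.

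Enzymes and transporters were the largest group, with 15 genes and medians of 56.4, 172 and 1.3 counts. Slc38a4, an amino acid transporter, had 467, 462, 354, 400 and 115 counts in WT#1-4 and 3969, 5281, 7994, 11071 and 5591 counts in WT#20D-17. The knockout lines had 0 to 7 counts, all of them under the lowest wild type library. Car4, a membrane-bound carbonic anhydrase, had 0, 37, 55, 152 and 77 counts in WT#1-4 and 2518, 7047, 7598, 5742 and 1413 counts in WT#20D-17. Nox4-/- #5-8 had up to 3 counts and Nox4-/- #5-23 had 0 throughout, so day 0 of WT#1-4 was the only wild type library at the knockout level. Gpx7, a peroxidase of the glutathione peroxidase family that uses hydrogen peroxide, had 56, 130, 105, 120 and 37 counts in WT#1-4 and 316, 218, 134, 159 and 97 counts in WT#20D-17. It had 1 count in 1 library of each Nox4-/- line and 0 in the rest, which left the groups well apart. Dpp4, a dipeptidyl peptidase of the cell surface, had 33 to 420 counts in WT#1-4, 723 to 6266 counts in WT#20D-17 and 0 to 3 counts in the knockouts. Pdk4, a kinase that slows pyruvate dehydrogenase, had 21 to 362 counts in WT#1-4, 65 to 196 counts in WT#20D-17 and 0 to 4 counts in the knockouts. As3mt, which methylates arsenic, had 47 to 249, 206 to 496 and 0 to 2 counts in the same order. Cryzl2, a crystallin zeta-like gene, had the reverse order of the wild type lines, with 236 to 536 counts in WT#1-4, 55 to 202 in WT#20D-17 and 0 to 5 in the knockouts.

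Genes for signals, receptors and their effectors numbered 11, with medians of 32.6, 65.2 and 1.3 counts. Igf1, a growth factor of the insulin family, had 8, 15, 15, 26 and 61 counts in WT#1-4 and 7, 4, 24, 63 and 55 counts in WT#20D-17. The knockout libraries had 0 counts except for 1 count in Nox4-/- #5-8 and 2 in Nox4-/- #5-23, and the lowest wild type library, with 4 counts, lay just above them. Gdf6, a BMP-type ligand, had 2 to 54 counts in WT#1-4 and 4 to 169 counts in WT#20D-17, against 0 to 2 in the knockouts. Slit3 had 62, 11, 15, 29 and 9 counts in WT#1-4 and 45, 154, 1064, 1367 and 412 counts in WT#20D-17. It kept 8 counts on day 0 of both Nox4-/- lines, 1 below the lowest wild type library. Arhgap36, a regulator of Hedgehog signalling and protein kinase A, had 200, 545, 471, 974 and 130 counts in WT#1-4 and 14, 92, 51, 22 and 3 counts in WT#20D-17. Nox4-/- #5-8 had 4, 2, 8, 5 and 0 counts, which overlapped day 14 of WT#20D-17 and lay under the other 4 libraries of that line. Rgl3, an effector of Ras, had 36 to 508 counts in WT#1-4, 243 to 543 in WT#20D-17 and at most 1 in the knockouts.

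Transcription and chromatin factors, 10 genes with Repin1, had medians of 53.4, 88.5 and 0.81 counts. Utf1, a chromatin protein of pluripotent cells, had 138, 205, 224, 165 and 130 counts in WT#1-4 and 7577, 1712, 855, 464 and 201 counts in WT#20D-17. Nox4-/- #5-8 had 0 counts on all days and Nox4-/- #5-23 had 0, 1, 1, 1 and 0. The Nox4-/- libraries thus had at most 1 count of Utf1, which lay under all wild type libraries. Tbx3, a T-box repressor, had 37, 32, 23, 27 and 10 counts in WT#1-4 and 580, 1090, 3581, 2390 and 376 counts in WT#20D-17. Its 7 and 5 counts on day 0 of the Nox4-/- lines were close to day 14 of WT#1-4. Vdr, the vitamin D receptor, had 3, 14, 9, 47 and 117 counts in WT#1-4 and 10, 18, 94, 172 and 205 counts in WT#20D-17, with 0 to 5 counts in the knockouts. Foxp2, Gata5 and Dach1 were also in this group. Dach1, a SKI-type corepressor, had 111 to 281 counts in WT#1-4 and 10 to 47 counts in WT#20D-17, and its 11 counts on day 5 of Nox4-/- #5-8 were above the lowest of these.

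The group sorted as ubiquitin ligases, which did not hold Cblc, had 5 genes with medians of 27.4, 159 and 0.6 counts. Trim6 had 9, 39, 44, 26 and 14 counts in WT#1-4 and 5008, 2624, 2120, 1703 and 1501 counts in WT#20D-17. Of the knockout libraries, 7 had no count and none had more than 3. Trim5, its relative on chromosome 7, had 36.8 counts on average in WT#1-4, 22.9 in WT#20D-17 and up to 9.15 in the knockouts, where it overlapped WT#20D-17. Magel2, an imprinted gene whose product works with a ubiquitin ligase, had 136, 52, 30, 2 and 0 counts in WT#1-4 and 437, 140, 80, 122 and 14 counts in WT#20D-17, so the late libraries of WT#1-4 were at the knockout level of 0 to 2 counts. Asb4, a substrate receptor, had 1, 8, 22, 99 and 7 counts in WT#1-4 and 7, 1321, 928, 1277 and 204 counts in WT#20D-17, with 0 to 2 in the knockouts.

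The remaining groups were genes for RNA binding and the cytoskeleton, 4 in number, and 9 genes without a common role. Map7d3, a microtubule-associated protein, had 35, 69, 76, 38 and 2 counts in WT#1-4 and 713, 161, 62, 49 and 15 counts in WT#20D-17. With 0 counts in all knockout libraries, and 3 counts in each library as the floor, it was at least 14.7-fold higher in WT#1-4 and at least 66.7-fold higher in WT#20D-17 by its mean. The mean of WT#20D-17 was carried by day 0, with 713 counts, and would be far lower without it. Day 14 of WT#1-4, with 2 counts, was itself under the floor. Gm45837, the other gene at 0, rested on 3 libraries, with 210 and 211 counts on days 0 and 3 of WT#1-4 and 116 counts on day 0 of WT#20D-17. It overlaps Arap1, Mir139 and Pde2a, and up to 3764 counts were given to these, so its values may depend on how reads were divided. Of the 78 genes, 31 overlapped another annotated gene, 24 of them a gene on the other strand, and 14 had counts with decimals, which arise where reads fit more than 1 gene. Gm14419, Rtl8a and Dpp4 were among the latter. By CPM per kilobase of exon over the wild type libraries, Cldn6 had the highest level at 153, followed by Car4 at 54.9, Utf1 at 39.7 and Slc38a4 at 37.4. This order was set by WT#20D-17, since Cldn6 had 0.498 in WT#1-4 and 305 in WT#20D-17, while Rtl8a at 9.43 and Repin1 at 8.87 were higher in WT#1-4 than Cldn6, Car4, Utf1 or Slc38a4. Repin1 stood in place 8 at 7.96 and Itih5 in place 20 at 3.22. The levels of Utf1 and Slc38a4 lay closer together than the spread over libraries of either gene.

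The wild type lines were then compared with each other. The rule set the same limit on the mean of each line, so it used these counts and shaped the direction of their difference. The shares of the 78 genes, and the ratios and FDRs of single members, are therefore given as a description and not as tests. The comparison was of 1 line against 1 line with the days as a block, so its p-values measure the spread over days. By edgeR's quasi-likelihood test at an FDR under 0.01, 20 of the 77 genes that passed the filter on low counts differed (26.0%), against 23.4% of all 16096 genes. Higher in WT#20D-17 were 17 (22.1%, against 11.8% of all genes) and lower were 3 (3.90%, against 11.6%), and the median log2 ratio was 1.16 for the 77 genes and 0.00 for all genes. The group of enzymes and transporters had 6 of its 15 genes higher, and the group sorted as ubiquitin ligases 3 of 5. No gene of RNA binding and the cytoskeleton was called.

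Cldn6 had the largest ratio, with 0.857 ± 0.619 CPM (SD, n = 5) in WT#1-4 and 525 ± 154 CPM in WT#20D-17, a log2 ratio of 9.40 (SE 0.53, edgeR FDR 5.38e-05). This FDR and those that follow describe values that the rule had used. Trim6 had 1.04 ± 0.555 and 113 ± 53.6 CPM, a log2 ratio of 6.67 (SE 0.54, FDR 0.000187). For Car4 the levels were 2.62 ± 2.23 and 213 ± 118 CPM and the log2 ratio 6.66 (SE 0.94, FDR 0.00166). The ratios of Trim6 and Car4 lay closer together than the SE of either, so they are not ranked. In Cldn6, Trim6 and Car4 each library of WT#20D-17 was above all libraries of WT#1-4. Tbx3 was higher by a log2 ratio of 5.71, Asb4 by 5.20, Fndc3c1 by 4.77, Trp53i11 by 4.67, Slc38a4 by 4.40 and Dpp4 by 3.32. The 3 genes that were lower in WT#20D-17 were Itih5, Dach1 with a log2 ratio of -3.00 (SE 0.41, FDR 0.00145) and Arhgap36 with a log2 ratio of -3.85 (SE 0.54, FDR 0.00159). Of the 57 genes that were not called, Utf1 had a log2 ratio of 2.56 (SE 0.75, FDR 0.0317) and Cryzl2 one of -1.19 (SE 0.52, FDR 0.113). WT#20D-17 also had the visceral endoderm genes and the naive pluripotency markers such as Nanog and Esrrb. Whether the cell types of that line have a part in the values of the 78 genes was not tested.

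**Figure D4:**
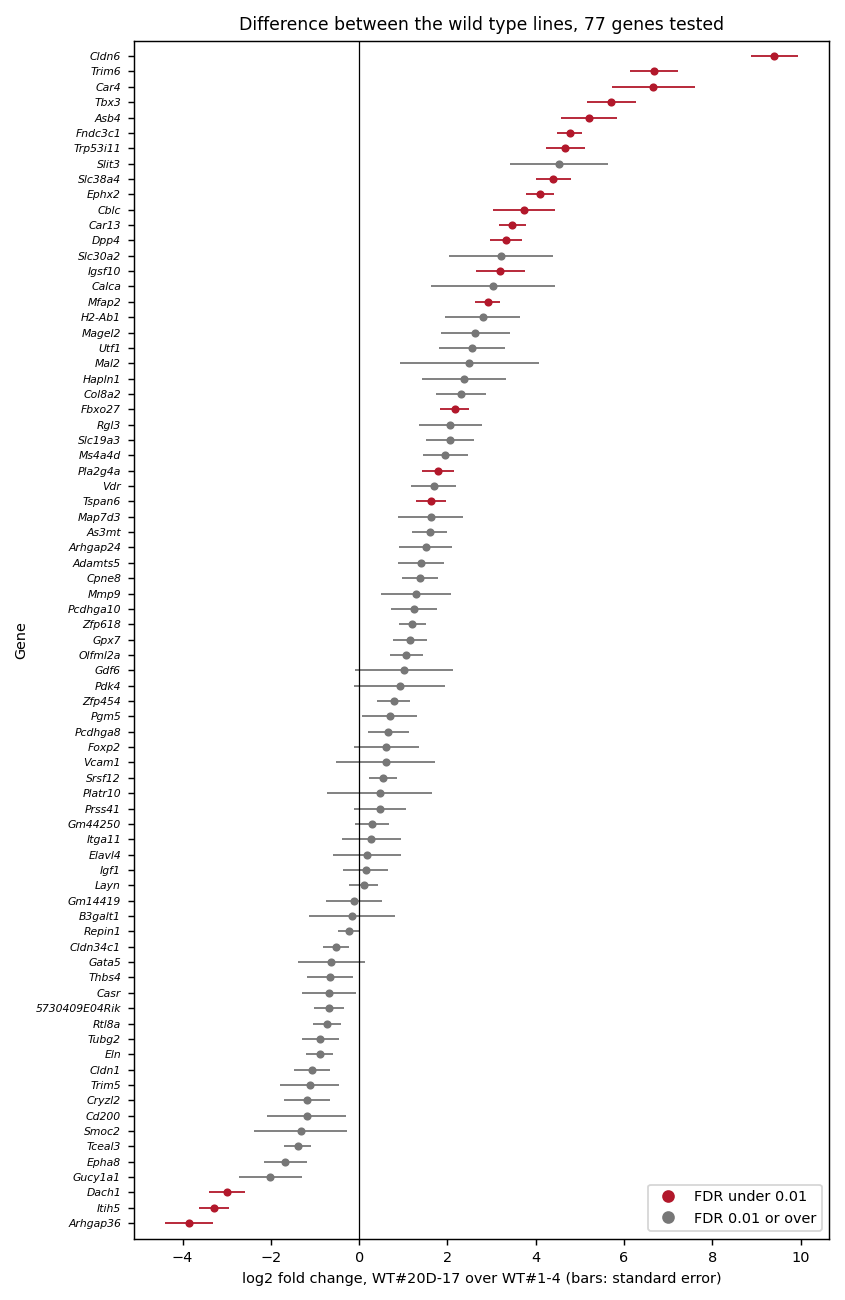
Log2 ratio of WT#20D-17 to WT#1-4 for the 77 genes tested, with the standard error as a bar and the 20 genes called by edgeR's quasi-likelihood test in red. Cldn6, Trim6 and Car4 lie at the high end, and Arhgap36, Itih5 and Dach1 at the low end.

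Over the days, the rule used only the mean of each line. With the line as a block, edgeR's quasi-likelihood test of day called 0 of the 77 genes and 0.0% of all genes at an FDR under 0.01, and the lowest FDR was 0.117 among the 77 genes and 0.0656 among all. At an unadjusted p under 0.05 there were 14 of the 77 (18.2%), against 18.6% of all genes. DESeq2's likelihood ratio test called 11 of the 77 (14.3%), against 11.0% of all genes. On DESeq2's scale of day 14 over day 0, 6 of the 11 had positive values. The log2 ratio was 5.91 for Adamts5, 5.32 for Vdr, 4.91 for Asb4, 3.41 for Igf1 and 1.46 for Dpp4. Hapln1 had 0 counts on day 0 in both wild type lines, so its fitted ratio of 7.16 has no measured base. Adamts5 had 1 and 2 counts on that day, under the floor of 3. Asb4 had 1 and 7 counts and Vdr 3 and 10 counts on day 0 of WT#1-4 and WT#20D-17, so their ratios also start near the floor. The other 5 of the 11 had negative values, with -5.75 for Magel2, -3.21 for Epha8, -3.07 for Ephx2, -2.44 for Fndc3c1 and -2.16 for Zfp618. Magel2 had 0 counts on day 14 of WT#1-4. Of the genes with positive values, Vdr was the clearest, with each wild type line at its highest count on day 14.

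The positions of the 78 genes were examined next. They lay on the X chromosome and all autosomes but 8 and 12, with 10 on chromosome 4 (12.8%, against 6.26% of the genes at 20 counts or more in both wild type lines) and 7 on the X chromosome (8.97%, against 3.38%). Asb4 and Pdk4 were next to each other on chromosome 6, 50329 bases apart with no coding gene between them. Trim6 and Trim5 were 28234 bases apart on chromosome 7 with 1 coding gene between them.

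To see whether the genes beside them also differed between the genotypes, the 2 nearest coding genes on each side that passed the filter on low counts and were not among the 78 were taken, 297 genes in all. The test was edgeR's exact test of 10 knockout against 10 wild type libraries at an FDR under 0.01, which called 12.1% of all 33860 genes with a count. Of the 297 flanking genes 70 were called (23.6%), against 19.2% of the 14319 coding genes past the same filter. Lower in the knockouts were 67 (22.6%, against 14.8%) and higher were 3, Amigo2, H2-Eb1 and Slc35a5, against 4.33% of the coding genes. The median log2 ratio was -0.18 for the flanking genes, -0.04 for the coding genes and -0.17 for all genes with a count. Line totals as the unit, 2 against 2, gave 0 calls among the flanking genes and among all coding genes. At an unadjusted p under 0.05 there were 32 of the 297 (10.8%), against 10.0% of the coding genes, so the calls rest on counting the days of a line as replicates. Without WT#20D-17 44 of 296 genes were called (14.9%, against 9.75% of the coding genes), and without WT#1-4 124 were called (41.8%, against 39.8%).

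Around Repin1, AI854703 was lower in the knockouts, with means of 4.66 CPM in WT#1-4, 1.42 in WT#20D-17, 0.842 in Nox4-/- #5-8 and 0.059 in Nox4-/- #5-23 (log2 ratio -2.75, edgeR exact test FDR 0.0011). The other flanking genes of Repin1, Rarres2, Lrrc61 and Zfp775, were not called. Around Itih5, Sfmbt2 had 2.35 CPM in WT#1-4, 134 in WT#20D-17, 9.69 in Nox4-/- #5-8 and 5.42 in Nox4-/- #5-23. It was called lower in the knockouts (log2 ratio -3.17), but its level in WT#1-4 was under that of both Nox4-/- lines, while Kin, Atp5c1 and Pfkfb3 were not called. Utf1 had no called gene among its 4, and Cldn9, 138 bases from Cldn6, was not called with a log2 ratio of -0.16. In 10 flanking genes (3.37%, against 2.54% of the coding genes) the genotypes did not overlap in any library. Stk26, a kinase beside Arhgap36, was the clearest of them, with 15.4 and 28.8 CPM in WT#1-4 and WT#20D-17 and 0.870 and 0.774 CPM in Nox4-/- #5-8 and #5-23 (log2 ratio -4.74, FDR 4.62e-21). Cldn4, beside Eln, had 8.20 and 99.5 CPM in the wild type lines and 0.327 and 0.117 CPM in the knockouts (log2 ratio -7.90). Vcan, a matrix proteoglycan beside Hapln1, had 6.79 and 81.2 against 1.59 and 2.12 CPM (log2 ratio -4.56). Amigo2, beside Slc38a4, went the other way, with 1.74 and 6.71 CPM in the wild type lines and 15.0 and 31.1 CPM in the knockouts (log2 ratio 2.45, FDR 1.3e-06). On chromosome 2 all 4 flanking genes of Trp53i11, namely Cd82, Tspan18, Syt13 and Prdm11, were called lower. Of the 78 genes, 50 had at least 1 called flanking gene and 28 had none. How many such places would be found around other genes is not given. Near Asb4 and Pdk4, Peg10 had 18.3 CPM in WT#1-4, 1080 in WT#20D-17, 12.2 in Nox4-/- #5-8 and 2.98 in Nox4-/- #5-23, so its difference lay mainly in WT#20D-17. Of the 67 genes that were lower, 59 had their highest mean in WT#20D-17, and 60 had a mean in WT#1-4 above both Nox4-/- lines. The call itself favours high wild type means, and no matching share of the coding genes is given, so these counts are a description.

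**Figure D5:**
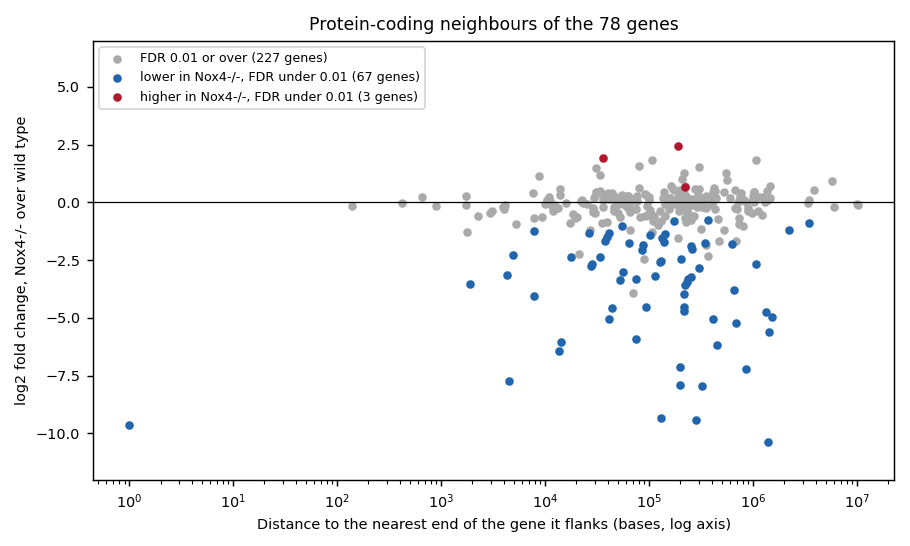
Log2 ratio of knockout to wild type for the 297 flanking genes against their distance in bases, on a log axis, from the gene they flank, with genes called by edgeR's exact test marked. The 67 genes that were lower lie below 0 at all distances, and the 3 that were higher lie above 0.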

How the data were processed

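The authors mapped paired reads of a stranded mRNA kit with STAR and estimated expected counts per gene with RSEM, and these were deposited without normalization. The submitters' processing notes list bcl2fastq, STAR 2.6.0c, RSEM 1.3.1 and mm10 (GRCm38). Whether RSEM used the strand is not given in the sources used here. Of the values, 9.92% had decimals, from reads divided between genes. Columns were matched to samples by their titles. The labels' protocol lists day 10 where titles and the study's text give day 14, which was used.

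Means for the rule were taken over the deposited values, and counts were rounded for tests. The tools were DESeq2 1.42.0, limma 3.58.1 and edgeR 4.0.16 in R 4.3.3. CPM used TMM factors over all 20 libraries. The test of line had day as a block, since libraries of a day share only its label, and the test of day had line as a block, both by edgeR's quasi-likelihood test with TMM and filterByExpr. Flanking genes were tested by edgeR's exact test on genes with a nonzero value. FDR is Benjamini-Hochberg over all genes tested, with a threshold of 0.01. The steps were tested on simulated data. For the genotype test these held no spread between lines of a genotype, so they cannot check the use of days as replicates. Symbols and positions came from GENCODE M21 (GRCm38), which held 55480 of the 55573 identifiers, and promoters from RefSeq (GRCm38.p6). Intervals are 95% Wilson intervals, and 3 counts were the floor, which both cover counting error only.

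Named genes were the 20 with the highest mean wild type count, Repin1 and Itih5, the oxidase genes, the relatives of Itih5, flanking genes past the threshold, and the lists for pluripotent cells, fibroblasts, visceral endoderm, muscle and mesoderm, neural cells and sex. Other genes were named after their values were seen. Members and lists were chosen with earlier results of these data known. Of the genes that met the counts, 1 is not reported here. Alternatives covered the limits, the scaling, the filter, the block, the test, the threshold, each line and each day.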

Additional observations from a re-analysis of the deposited data

Results flagged for a closer look

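In the 53 sets of 5 libraries of a line that were examined, 2 held a library far from the rest, and chance flags about 1 in 20 such sets. Gm14419, a zinc finger-like gene whose reads are shared with near-identical copies, had 1.44 CPM on day 14 of WT#1-4, far under the other 4 days. In Nox4-/- #5-23 it had 0.189 CPM on day 5, far over the others.

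In 5 of the 20 named genes, and in 17 of all 78, the libraries of the wild type lines moved in opposite ways from day 0 to day 14. This was on the scale of log2(CPM + 1), with the 95% Wilson intervals of the days apart in both lines. These intervals cover counting error only, and no share of all genes is given, so the counts are a description. The difference was not tested because each line had 1 library per day. Slc38a4 changed by -1.48 in WT#1-4 and 0.85 in WT#20D-17, and Itih5 by -0.44 and 0.52. Slit3 changed by -1.21 in WT#1-4 and 2.99 in WT#20D-17. Car4 changed by 2.27 in WT#1-4 and -0.47 in WT#20D-17, and Cryzl2 by 1.47 and -1.24.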

How the results depend on the processing

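With a knockout limit of 1 or 5 counts the rule found 34 or 129 genes, and with a wild type limit of 10 or 50 counts 193 or 22 genes. The limit on WT#1-4 alone gave 145 genes and on WT#20D-17 alone 1002, both added after seeing the data. TMM-scaled values gave 80 genes and leaving out each day 67 to 86. Between the wild type lines, in place of 20 genes (26.0%, against 23.4% of all genes), 34 were called at an FDR of 0.05 (44.2% against 39.5%), 38 by DESeq2 (49.4% against 38.2%), 22 without the low count filter (28.2% against 14.2%), 22 without the day as replicate block (28.6% against 24.6%), and 14 to 23 without each day. The lowest, without day 5, was 18.2% against 12.9%. DESeq2 called 11 genes over the days in place of 0. Of the flanking genes, 44 of 151 were called with 1 gene on each side (29.1%) and 0 of 297 with line totals, in place of 70 of 297 (23.6%, against 19.2% of coding genes). With the day as replicate block 63 were called (21.2% against 17.8%). Without each line 26 to 124 were called, the lowest without Nox4-/- #5-23 (8.75% against 6.33%), 41 without Nox4-/- #5-8 (13.8% against 10.2%), and the highest without WT#1-4 (41.8% against 39.8%). The cause was not tested. Of 180 repeats of the line ratios of the named genes, 160 kept direction and side of the threshold, 11 passed it newly, 6 lost it and 3 changed sign. The last were all of Gm14419, at -0.12 with all days and -0.64 to 0.41 without each day, with 0.09, 0.41 and 0.00 without day 3, 5 or 7. Tspan6 lost its call without any 1 of days 3, 5, 7 and 14 (log2 ratio 1.36 to 1.80), Car4 without day 5 (6.45), and Asb4 without the block (4.87). With 20294968 to 27708023 counts per library, levels near 3 counts cannot be told from 0.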
